A study of Mus musculus with 8 samples.

Results

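Lungs of bone marrow chimeric mice were compared in which the marrow graft always came from LysM-DTR donors and the recipient was either LysM-DTR as well or wild type. The question was what changes in a lung whose marrow-derived myeloid cells already carry the diphtheria toxin receptor when the recipient's own cells carry it too. The first letter of a group names the donor and the second the recipient. LL mice had LysM-DTR marrow in LysM-DTR recipients, and LW mice had LysM-DTR marrow in wild-type recipients, with 2 mice in each. These 4 mice were chosen by their labels from the 8 of the series. The remaining mice had wild-type marrow in LysM-DTR recipients (WL) or wild-type marrow in wild-type recipients (WW), again 2 each, and are used below only to set the recipient difference beside the same difference under wild-type marrow. All were male, 22 weeks old and had received diphtheria toxin (DT) 72 hours before the whole lung was taken. No array of a mouse without toxin is part of the design used here, so LW is a toxin-treated comparison group whose marrow-derived cells also carried the receptor. The labels do not give the degree of chimerism, the conditioning of the recipients or the toxin dose.

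In LysM-DTR mice the lysozyme M promoter, that of Lyz2, drives the diphtheria toxin receptor. The receptor is heparin-binding EGF-like growth factor, whose mouse form binds the toxin poorly, which makes ordinary mouse cells resistant. Inside a cell the toxin inactivates elongation factor 2 through its diphthamide residue, which stops protein synthesis and kills the cell. Monocytes, macrophages and neutrophils make lysozyme M, as do alveolar type 2 cells in the lung. Type 2 cells secrete surfactant and are the progenitors of alveolar type 1 cells, the thin cells across which gas is exchanged. In a chimera, monocytes, neutrophils and platelets turn over quickly and come mostly from the graft, whereas the epithelium belongs to the recipient and long-lived alveolar macrophages can be of either origin. After alveolar damage, type 2 cells are known to pass through a keratin-rich transitional state on their way to type 1 cells. The promoter is active in several cell types, so the strain does not single out any of them.

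Levels were log2 intensities of a single-colour array set to 0 at each array's 75th percentile, which was 242 to 255 intensity units on the 4 arrays. On the LL arrays 71.4 and 69.3% of spots were well above background, on the LW arrays 66.3 and 66.9%, and none was saturated. The arrays shared 1 slide and 1 scan. LL and LW arrays occupied opposite sides of that slide, so genotype and side of the slide cannot be told apart. Over the tested genes the mice of a pair correlated at 0.99 in LL and 0.99 in LW, and the group means of LL and LW at 0.958 (Pearson, across genes, which are not independent replicates). A difference of over 1 on the log2 scale was seen for 775 genes between the LL mice, for 625 between the LW mice and for 3595 between the group means. Lung identity was visible on all 4 arrays. The type 2 cell gene Sftpc read 7.41 and 7.83 in LL and 9.70 and 9.57 in LW, the club cell gene Scgb1a1 9.44 and 9.45 in LL and 9.50 and 9.50 in LW, and the endothelial gene Cdh5 3.79 and 4.0 in LL and 4.06 and 4.07 in LW. With 2 mice a group, no rank or permutation test of a single gene could reach 0.05, and calls rest on limma's moderated variance, fitted to these 4 arrays with 2 residual degrees of freedom.

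Of 25208 genes tested, 7456 (29.6%) were called at a Benjamini-Hochberg adjusted p under 0.05, 4287 of them higher in LL (17.0%) and 3169 lower (12.6%). The median difference over all genes was 0.06. Among called genes, 1522 were higher by at least 1 on the log2 scale and 1488 lower, and 543 were lower by at least 2 against 380 higher. Neither LW array was well above background for 498 called genes, and neither LL array for 190. In each of the 7456 called genes the pairs of mice did not overlap, as in 72.7% of all genes tested. The largest declines included genes of macrophages and of type 2 cells, and the largest rises genes of the acute phase, chemokines and matrix turnover. The count depended on the design: 751 genes were called with all 8 arrays in the fit and 0 with no moderation of the variance, where 8428 had an unadjusted p under 0.05. Of the 218 called genes that the naming rule picks, 149 stayed called with each of the 4 mice left out in turn and 155 lost their call in the fit on 8 arrays. Whole lung was measured, so fewer cells of a type and less RNA per cell cannot be told apart in any of the results that follow. Counts of a list in the main fit compare with the shares over all genes, 17.0% higher and 12.6% lower. Numbers in parentheses after a count of a list are the counts without LL1, LL2, LW1 and LW2, in that order. Each of those fits called fewer of all genes than the main fit, so those shares do not apply to it. A smaller count in parentheses need not be particular to its list. Values in parentheses after a median difference are those under settings that moved it by over 1.5 times and by over 0.2, or with genes at background set to their bound. With normexp background correction, whose offset compresses dim signals, the difference of 64 of 231 genes picked by the naming rule was over 1.5 times smaller. Some genes given below by a difference or a direction alone lie outside the naming rule and were chosen after their values were seen.

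**Figure D1:**
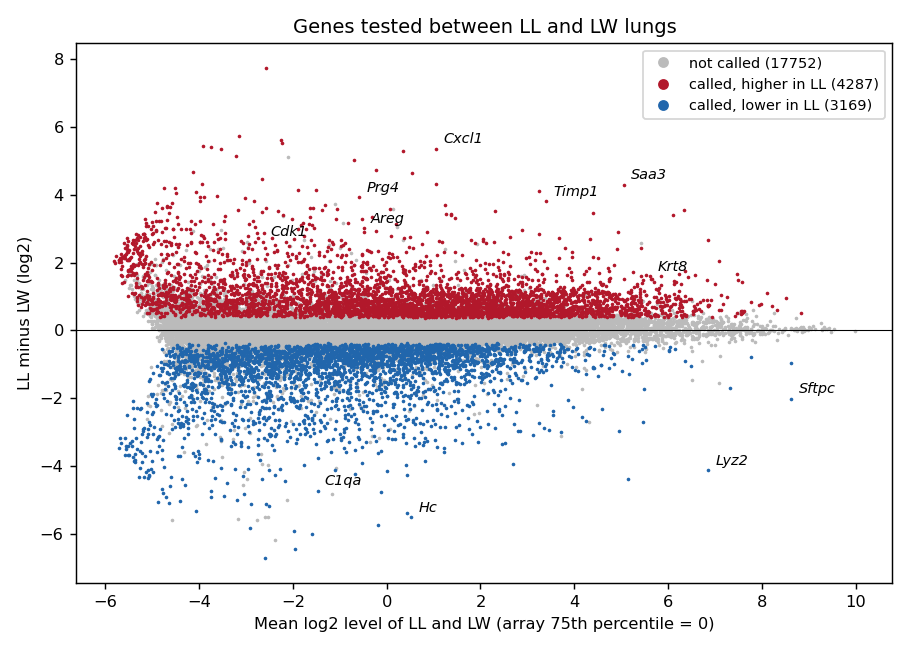
Difference between LL and LW (y axis, log2, positive when higher in LL) against the mean level of LL and LW (x axis, log2, 0 at the array's 75th percentile), 1 point per gene tested. Called genes are coloured (4287 higher in red, 3169 lower in blue), and 11 genes described in the text are labelled, from Hc at -5.50 to Cxcl1 at 5.35.

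Lysozyme M itself was read first. Its level cannot check the labels, because WL1, a LysM-DTR recipient, read 8.70 for Lyz2, near the LW and WW mice. Lyz2 read 4.67 and 4.94 in LL and 8.99 and 8.84 in LW, and the lower group did not come near the higher. It was 17.3-fold lower in LL, a difference of -4.11 ± 0.14 (SE), adjusted p = 0.00602. Lyz1, its near-identical neighbour, read 2.77 and 3.14 in LL and 7.42 and 7.25 in LW, a difference of -4.38 ± 0.17 (SE), adjusted p = 0.00602. The paralogues are similar enough that their probes may share signal, so the 2 values are not separate evidence. In the mice with wild-type marrow Lyz2 read 8.70 and 7.36 in WL and 9.05 and 9.09 in WW, so LW lay beside WW. Hbegf, the mouse gene of that growth factor, rose: it read 4.12 and 4.0 in LL and 2.28 and 2.25 in LW, a difference of 1.79 ± 0.10 (SE), adjusted p = 0.00632. Whether its probes see the receptor transgene was not tested. Eef2, the gene of the toxin's target, read 6.58 and 6.73 in LL and 6.53 and 6.57 in LW, a difference of 0.11 ± 0.11 (SE), adjusted p = 0.482, which did not pass the test.

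Many macrophage and monocyte genes fell. Of 20 alveolar macrophage genes tested, 0 rose and 14 (10 to 12 with any 1 mouse left out) fell, with a median difference of -1.67 (-1.65 with genes at background at their bound), against 17.0% of all genes rising and 12.6% falling. Siglecf, the sialic-acid lectin that marks alveolar macrophages, was not well above background in either LL mouse and was at least 13.6-fold lower than in LW, where it read -1.74 and -1.02 against -5.67 and -6.58 in LL. Itgax, the CD11c integrin of alveolar macrophages and dendritic cells, read -2.73 and -1.40 in LL and 2.31 and 1.83 in LW, a difference of -4.14 ± 0.50 (SE), adjusted p = 0.0125. The eosinophil-associated ribonuclease Ear2, abundant in alveolar macrophages, read 0.77 and 0.97 in LL and 4.52 and 3.85 in LW, and the fatty acid binding protein gene Fabp5 read 1.84 and 2.0 in LL and 4.95 and 4.64 in LW. In both the LW mice lay far above the LL mice, with differences of -3.31 ± 0.26 (SE), adjusted p = 0.00797 for Ear2 and -2.88 ± 0.15 (SE), adjusted p = 0.00602 for Fabp5. Mrc1, the mannose receptor, differed by -2.49. The 6 members that did not pass included Marco, Chil3 and Fabp4. The probes of Itgax disagreed, and another gave a difference of -0.73.

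Among 26 genes of monocytes and recruited macrophages, 2 (4, 2, 3 and 2 without LL1, LL2, LW1 and LW2 in turn) rose and 14 (14, 12, 9 and 9) fell, with a median difference of -0.98 (-0.62 over genes above background on every array). The complement C1q chains, which resident and recruited macrophages secrete, fell together. C1qa read -3.70 and -3.97 in LL and 1.1 and 0.67 in LW (-4.72 ± 0.20 (SE), adjusted p = 0.00602). C1qc read -2.13 and -2.86 in LL and 2.38 and 2.13 in LW (-4.75 ± 0.28 (SE), adjusted p = 0.00645), and C1qb read -2.77 and -2.98 in LL and 0.51 and 0.20 in LW (-3.23 ± 0.16 (SE), adjusted p = 0.00602). The fractalkine receptor gene Cx3cr1 read -4.35 and -4.82 in LL and 1.55 and 1.28 in LW, and Ms4a7, a tetraspan gene of tissue macrophages, read -5.05 and -4.80 in LL and 1.24 and 0.72 in LW. Each was above background on only 1 LL array, with fitted differences of -6.0 ± 0.21 (SE), adjusted p = 0.00602 and -5.90 ± 0.22 (SE), adjusted p = 0.00602. Ccr2, the receptor that brings monocytes into tissue, read -4.68 and -4.09 in LL and 0.42 and -0.34 in LW, a 21.4-fold lower mean in LL (-4.42 ± 0.35 (SE), adjusted p = 0.00803). Adgre1, an adhesion receptor gene by which mouse macrophages are stained, read -4.12 and -2.21 in LL and 1.12 and 0.76 in LW (-4.11 ± 0.68 (SE), adjusted p = 0.0221). The 2 members that rose were Ly6c1 and Ly6c2, near-identical paralogues of which Ly6c1 is also expressed by endothelium. Without LW1 or LW2, Adgre1 no longer passed (adjusted p from 0.0708 to 0.0782).

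**Figure D2:**
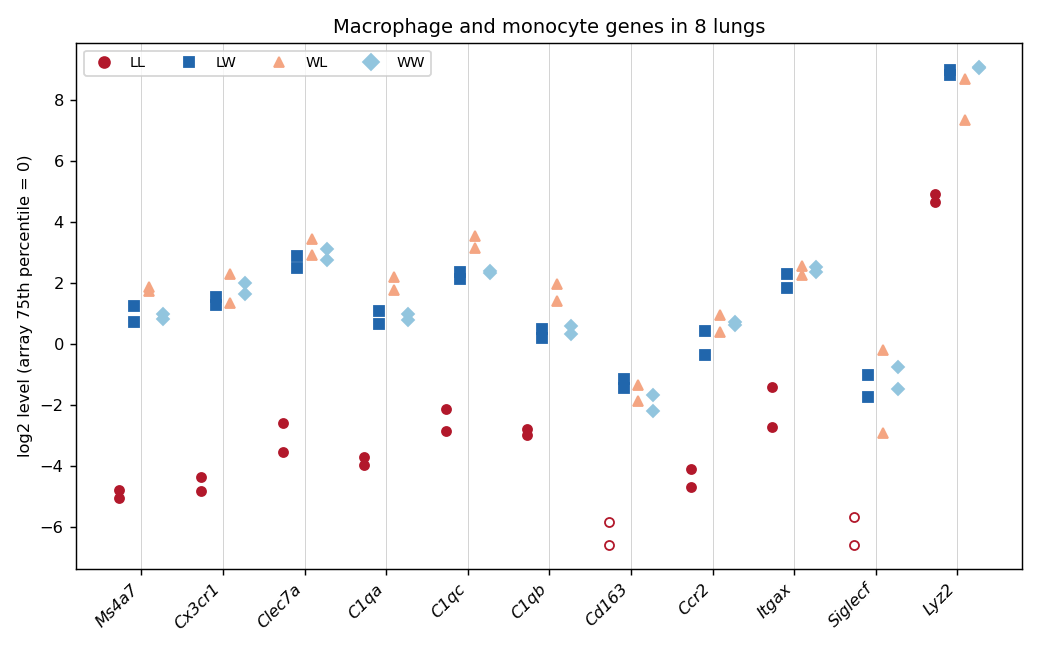
Levels of 11 macrophage and monocyte genes (y axis, log2, 0 at the array's 75th percentile) in each of the 8 lungs, coloured by group. Open symbols mark a group in which neither array was well above background. LL mice lie below the other 6 for each of these genes, for example Ms4a7 at -5.05 and -4.80 in LL against 0.72 or more elsewhere.

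The scavenger receptor gene Cd163 was at background in both LL mice and at least 14.4-fold lower than in LW. Timd4, Mrc1 and Clec10a, further receptors of resident macrophages, also fell. Retnla, an alternative-activation product that lung epithelium can make too, read 7.55 and 8.05 in LL and 4.6 and 4.21 in LW, a difference of 3.39 ± 0.24 (SE), adjusted p = 0.0073. Over the 22 genes of efferocytosis and alternative activation, 6 (6, 5, 2 and 2 without LL1, LL2, LW1 and LW2 in turn) rose and 6 (5, 5, 2 and 2) fell, with a median difference of 0.08 (-0.15 with quantile normalisation). Of 21 pattern recognition and Fc receptor genes, 2 (1, 2, 0 and 0) rose and 11 (11, 13, 4 and 4) fell, with a median difference of -1.65 (-0.62 with normexp and -0.76 without LL1). The beta-glucan receptor gene Clec7a read -3.53 and -2.58 in LL and 2.88 and 2.49 in LW, which was the largest decline among genes above background on all 4 arrays (-5.74 ± 0.37 (SE), adjusted p = 0.00664, 53.6-fold). Syk, the kinase downstream of it, read -0.37 and 0.20 in LL and 2.08 and 2.40 in LW (-2.32 ± 0.25 (SE), adjusted p = 0.0105). Tlr1, a partner of the lipoprotein receptor Tlr2, read -3.03 and -3.34 in LL and -0.39 and 0.00 in LW (-2.99 ± 0.20 (SE), adjusted p = 0.00668). Tlr2 and Tlr4 differed by -0.01 and 0.00 and did not pass. The probes of Clec7a and Syk disagreed, and another probe of each gave differences of -2.77 and -1.43, in that order.

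Antigen presentation fell as well. Of 12 genes of class II presentation, 0 rose and 10 (11, 11, 6 and 7 without LL1, LL2, LW1 and LW2 in turn) fell, with a median difference of -2.76. H2-Aa, a class II chain, read -0.37 and 0.50 in LL and 2.92 and 2.88 in LW, a difference of -2.83 ± 0.32 (SE), adjusted p = 0.0111. Ctss, the cathepsin that trims the invariant chain, read 0.37 and 1.08 in LL and 4.89 and 4.39 in LW (-3.92 ± 0.32 (SE), adjusted p = 0.00818), and H2-Ob, a chain of the H2-O regulator found in B cells, read -1.96 and -2.13 in LL and 0.58 and 1.12 in LW (-2.90 ± 0.22 (SE), adjusted p = 0.0078). Both LL mice lay at least 2 log2 units under both LW mice for each of these 3 genes. Of 15 dendritic cell genes, 0 rose and 9 (8, 7, 4 and 4) fell, with a median difference of -1.24 (-0.53 with normexp and -0.66 over genes above background on every array). Ccr7, which guides migrating dendritic cells and lymphocytes, read 0.17 and 0.14 in LL and 2.63 and 3.24 in LW (-2.78 ± 0.23 (SE), adjusted p = 0.00834). Clec9a, a marker of cross-presenting dendritic cells, read -4.86 and -5.21 in LL and -1.23 and -2.0 in LW (-3.42 ± 0.31 (SE), adjusted p = 0.00892). It was above background on only 1 LL array. Cd209a, a lectin of monocyte-derived dendritic cells, was at background in LL and at least 21.3-fold lower, although the LW mice themselves read 0.26 and -1.66. Cd209a lost its call without LL1 or LL2 (adjusted p from 0.0543 to 0.0676). The probes of Cd209a disagreed, and another gave a difference of -1.32.

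Lymphocyte genes fell in the same lungs. T cell genes gave the most uniform group, with 20 tested, of which 0 rose and 18 (12 to 15 with any 1 mouse left out) fell, with a median difference of -1.99 (-1.71 with genes at background at their bound and -1.23 with normexp). Cd3g, a chain of the T cell receptor complex, read -2.21 and -2.15 in LL and 0.35 and 0.47 in LW (-2.59 ± 0.10 (SE), adjusted p = 0.00602), and the adhesion receptor gene Cd2 read -0.47 and -0.68 in LL and 2.86 and 3.16 in LW (-3.58 ± 0.16 (SE), adjusted p = 0.00602). Cd3e, by its brightest probe, read 1.57 and 1.70 in LL and 2.08 and 2.16 in LW, a smaller difference of -0.48 ± 0.11 (SE), adjusted p = 0.0403. Of 16 B cell genes, 0 rose and 13 (11 to 12 with any 1 mouse left out) fell, with a median difference of -2.68. Tnfrsf13c, the receptor of the B cell survival factor BAFF, read -2.12 and -1.92 in LL and 0.43 and 0.93 in LW (-2.70 ± 0.21 (SE), adjusted p = 0.00797). Of 14 natural killer cell genes, 0 rose and 12 (9, 7, 10 and 10 without LL1, LL2, LW1 and LW2 in turn) fell, with a median difference of -2.56 (-2.51 with genes at background at their bound and -1.18 with normexp). Klrd1, a chain of an inhibitory receptor of these cells, read -3.63 and -3.54 in LL and -0.47 and -0.09 in LW (-3.31 ± 0.16 (SE), adjusted p = 0.00602), and the granzyme gene Gzma read 0.47 and 0.72 in LL and 3.03 and 3.48 in LW (-2.66 ± 0.20 (SE), adjusted p = 0.00796). Ptprc, the pan-leukocyte gene CD45, was measured by 7 probes that disagreed: differences ran from -3.89 to -0.37, and the brightest gave -0.37 ± 0.10 (SE), adjusted p = 0.0556. Leaving out LL1, LL2, LW1 or LW2 ended the call of Cd3e (adjusted p from 0.0697 to 0.199).

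Platelet genes were lower in LL. Of 14 platelet and megakaryocyte genes, 0 (up to 2 with 1 mouse left out) rose and 9 (9, 8, 5 and 5 without LL1, LL2, LW1 and LW2 in turn) fell, with a median difference of -1.93 (-1.55 with genes at background at their bound, -0.34 with normexp and -0.39 over genes above background on every array). Gp9, a subunit of the von Willebrand factor receptor, was at background in both LL mice and at least 33.4-fold lower than in LW. Pf4, platelet factor 4, read -0.49 and -0.81 in LL and 3.21 and 2.35 in LW (-3.43 ± 0.33 (SE), adjusted p = 0.00938). Clec1b, the podoplanin receptor of platelets, read -3.21 and -3.48 in LL and 0.78 and 0.04 in LW (-3.76 ± 0.29 (SE), adjusted p = 0.00796). Ppbp, the platelet chemokine gene, read -4.53 and -5.81 in LL and 1.54 and 0.97 in LW and was above background on 1 of the LL arrays (-6.43 ± 0.50 (SE), adjusted p = 0.00797). Of 10 erythroid genes limma called 0, with 0 at an unadjusted p under 0.05 and a median difference of 0.10 (1.18 without LL1, -1.09 without LL2, 0.32 without LW1 and -0.15 without LW2). The LL mice lay on opposite sides of the LW mean for this list, at an average of -1.21 in LL1 and 1.26 in LL2, so the median near 0 does not describe either mouse, and 1 gene was called without LL1. Hba-a1, of the haemoglobin carried by red cells, differed by -0.03 and did not pass.

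Neutrophil genes did not move as a group. Of 26, 4 (4, 1, 1 and 2 without LL1, LL2, LW1 and LW2 in turn) rose and 2 (1, 4, 2 and 1) fell, with a median difference of 0.41 (0.23 with genes at background at their bound, 0.20 with normexp, 0.95 without LL1, 0.10 without LL2 and 0.77 without LW2). Ly6g, the granulocyte surface marker, read 3.19 and 3.47 in LL and 1.81 and 1.88 in LW (1.48 ± 0.14 (SE), adjusted p = 0.00897), whereas the receptor genes Cxcr2 and Cxcr1, found on mature neutrophils, fell. Cxcr2 read -3.72 and -2.92 in LL and -1.63 and -0.63 in LW (-2.19 ± 0.45 (SE), adjusted p = 0.0336), and Cxcr1 was at background in LL and at least 4.83-fold lower. Ngp, a secondary granule gene of immature neutrophils, read -1.12 and 2.22 in LL and was at background in LW, at least 32.4-fold higher, with LL mice that differed by more than 3 log2 units. S100a8, among the most abundant neutrophil transcripts, read 3.76 and 5.93 in LL and 3.90 and 5.22 in LW, and these ranges overlap (0.29 ± 0.89 (SE), adjusted p = 0.824). It also read higher in replicate 2 of WL (3.42 and 5.30) and of WW (4.42 and 5.66). The list average was higher in replicate 2 of all 4 groups too, and the main fit counted this shift as spread within a group. Of the mast cell and basophil genes, 9 were tested and 1 (1 with any 1 mouse left out) rose and 1 (1, 1, 0 and 0) fell, with a median difference of 0.05 (-0.33 without LW1 and 0.38 without LW2). Tpsb2, a mast cell tryptase, read 1.61 and 1.77 in LL and -0.28 and -0.18 in LW (1.92 ± 0.12 (SE), adjusted p = 0.00646). Without LL1, LL2 or LW2, Cxcr2 no longer passed (adjusted p from 0.0637 to 0.0952). Ngp lost its call without LL2, LW1 or LW2 (adjusted p from 0.0556 to 0.128).

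**Figure D3:**
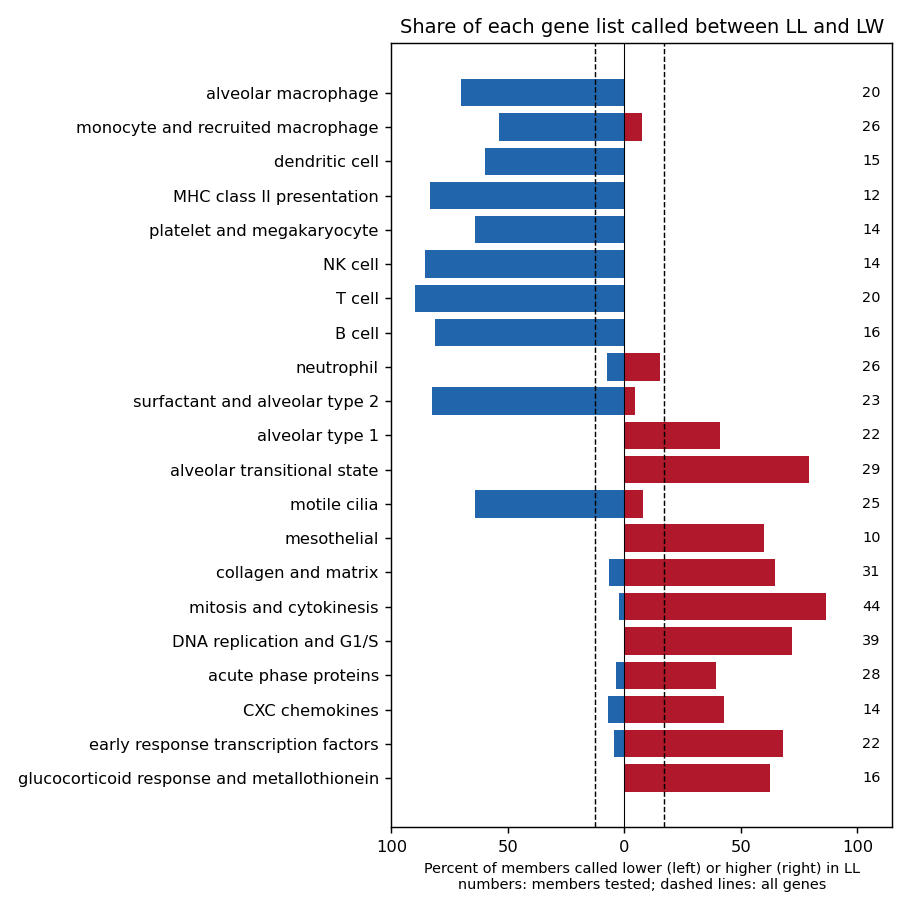
Percent of the tested members of 21 gene lists called lower (blue, to the left) or higher (red, to the right) in LL than in LW, with the number tested beside each bar. Dashed lines mark the shares over all genes, 12.6% lower and 17.0% higher. T cell, NK cell, class II and type 2 cell bars extend far to the left and mitosis and transitional state bars far to the right.

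Among the alveolar epithelial lists, read in whole lung, most type 2 cell genes fell and most transitional state genes rose. For the type 1 cell list, 9 of 22 genes rose and the rest did not pass. Which cells carried these changes was not tested. Of 23 surfactant and type 2 cell genes, 1 (1, 1, 1 and 0 without LL1, LL2, LW1 and LW2 in turn) rose and 19 (14 to 17 with any 1 mouse left out) fell, with a median difference of -2.02. The list shares Lyz2 and Lyz1 with the monocyte list and Fabp5 with the alveolar macrophage list, so these 3 are not specific to either. Sftpc, the surfactant protein characteristic of type 2 cells, read 7.41 and 7.83 in LL and 9.70 and 9.57 in LW, a 4.05-fold lower mean (-2.02 ± 0.18 (SE), adjusted p = 0.00876). Sftpa1, a collectin of surfactant, read 5.96 and 5.97 in LL and 7.22 and 6.81 in LW (-1.05 ± 0.17 (SE), adjusted p = 0.0209). Sftpb and Sftpd, also surfactant protein genes, did not pass. Sftpb read 7.91 and 8.11 in LL and 8.11 and 8.12 in LW (-0.10 ± 0.11 (SE), adjusted p = 0.519), and Sftpd read 7.20 and 7.44 in LL and 7.62 and 7.19 in LW (-0.08 ± 0.20 (SE), adjusted p = 0.765). Hc, the gene of complement C5 and a strong type 2 cell transcript in mouse lung, read -2.32 and -2.13 in LL and 3.52 and 3.03 in LW, a 45.4-fold lower mean (-5.50 ± 0.20 (SE), adjusted p = 0.00602). Acoxl, an acyl-CoA oxidase-like gene, read -2.0 and -2.53 in LL and 3.27 and 2.96 in LW (-5.38 ± 0.23 (SE), adjusted p = 0.00602). Etv5, the factor that maintains type 2 cells downstream of FGF, read 2.30 and 2.32 in LL and 4.84 and 4.76 in LW (-2.49 ± 0.10 (SE), adjusted p = 0.00602). Lamp3, of the lamellar bodies that store surfactant, Napsa, the aspartic protease that processes surfactant proteins, and Slc34a2, the phosphate carrier, were among the others that fell, with differences of -2.56, -2.17 and -2.21. Ctsh, a cathepsin of lamellar bodies, was the only member to rise. Leaving out LL1, LL2 or LW1 ended the call of Sftpa1 (adjusted p from 0.0634 to 0.0739). The probes of Slc34a2 disagreed, and another gave a difference of 0.47.

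Transitional state genes rose almost throughout: of 29 tested, 23 (21, 19, 18 and 15 without LL1, LL2, LW1 and LW2 in turn) rose and 0 fell, with a median difference of 1.5. The list shares Krt19 with the mesothelial list and Areg and Hbegf with the EGF receptor ligands. It also shares Cdkn1a and Gdf15 with the p53 targets and Anxa1 with efferocytosis, so these members are not specific to alveolar epithelium. Krt8, the keratin by which the state is usually named, read 6.46 and 6.36 in LL and 4.81 and 4.83 in LW (1.59 ± 0.10 (SE), adjusted p = 0.00648), and Krt19 read 6.14 and 6.04 in LL and 3.77 and 3.65 in LW (2.38 ± 0.11 (SE), adjusted p = 0.00602). The cytoplasmic calcium-binding protein gene S100a14 read 2.90 and 3.27 in LL and -0.65 and -0.55 in LW, a 12.8-fold higher mean (3.68 ± 0.16 (SE), adjusted p = 0.00602). Tnfrsf12a, the receptor of the cytokine TWEAK, read 4.34 and 4.39 in LL and 1.32 and 1.52 in LW (2.94 ± 0.12 (SE), adjusted p = 0.00602). In each of these 4 genes the LL mice agreed within 0.4 log2 units and lay over 1.5 above the LW mice. Cldn4, a claudin of injured alveolar epithelium, read -2.54 and -2.55 in LL and -3.87 and -3.85 in LW (1.32 ± 0.09 (SE), adjusted p = 0.00731). Cdkn1a, the p21 inhibitor of the cell cycle, read 4.17 and 4.52 in LL and 2.55 and 2.46 in LW (1.84 ± 0.16 (SE), adjusted p = 0.00846). The probes of Cdkn1a disagreed, and another gave a difference of 0.20.

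Of 22 type 1 cell genes, 9 (5, 5, 3 and 2 without LL1, LL2, LW1 and LW2 in turn) rose and 0 (up to 1 with 1 mouse left out) fell, with a median difference of 0.38. Pdpn, the podoplanin gene, read 5.99 and 6.45 in LL and 4.87 and 4.57 in LW (1.5 ± 0.21 (SE), adjusted p = 0.0163), and Aqp5, the water channel of the alveolar surface, read 6.32 and 6.16 in LL and 5.36 and 5.31 in LW (0.91 ± 0.11 (SE), adjusted p = 0.0122). Ager, a receptor gene of type 1 cells, read 8.63 and 8.59 in LL and 8.02 and 8.02 in LW (0.59 ± 0.09 (SE), adjusted p = 0.0199), and Hopx read 6.58 and 6.52 in LL and 5.89 and 5.90 in LW (0.65 ± 0.10 (SE), adjusted p = 0.0172). By the brightest probe of each, Pdpn differed most of these 4 genes, and the mice of a pair lay closest together in Ager and Hopx. The 7 probes of Ager ran from 0.59 to 1.81, so this order depends on the probe. Among 25 genes of tight junctions and ion transport, 11 (8, 5, 3 and 3) rose and 0 fell, with a median difference of 0.37, among them the epithelial sodium channel subunits Scnn1a (1.37 ± 0.12 (SE), adjusted p = 0.00859) and Scnn1b (0.93 ± 0.10 (SE), adjusted p = 0.0103). Of 9 basal cell genes, 3 (2 to 4 with any 1 mouse left out) rose and 0 fell, with a median difference of 0.66 (0.42 with normexp). Krt5 read -0.58 and -0.65 in LL and -1.94 and -1.51 in LW (1.11 ± 0.18 (SE), adjusted p = 0.0202) and Krt14 read 0.24 and -0.43 in LL and -2.56 and -2.31 in LW (2.35 ± 0.26 (SE), adjusted p = 0.0112), while Trp63, the basal cell master factor, differed by -0.18 and did not pass. Epcam, a general epithelial gene, read -0.81 and -0.48 in LL and -0.41 and -0.53 in LW (-0.18 ± 0.15 (SE), adjusted p = 0.413). Without LW2, Pdpn no longer passed (adjusted p = 0.0667). Aqp5, Hopx and Scnn1b lost their calls without LW1 or LW2 (adjusted p from 0.0522 to 0.0987). Leaving out LL1, LL2, LW1 or LW2 ended the call of Ager (adjusted p from 0.051 to 0.114). Without LL1, LL2 or LW1, Krt5 no longer passed (adjusted p from 0.0603 to 0.0693). The probes of Scnn1a disagreed, and another gave a difference of 0.18.

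**Figure D4:**
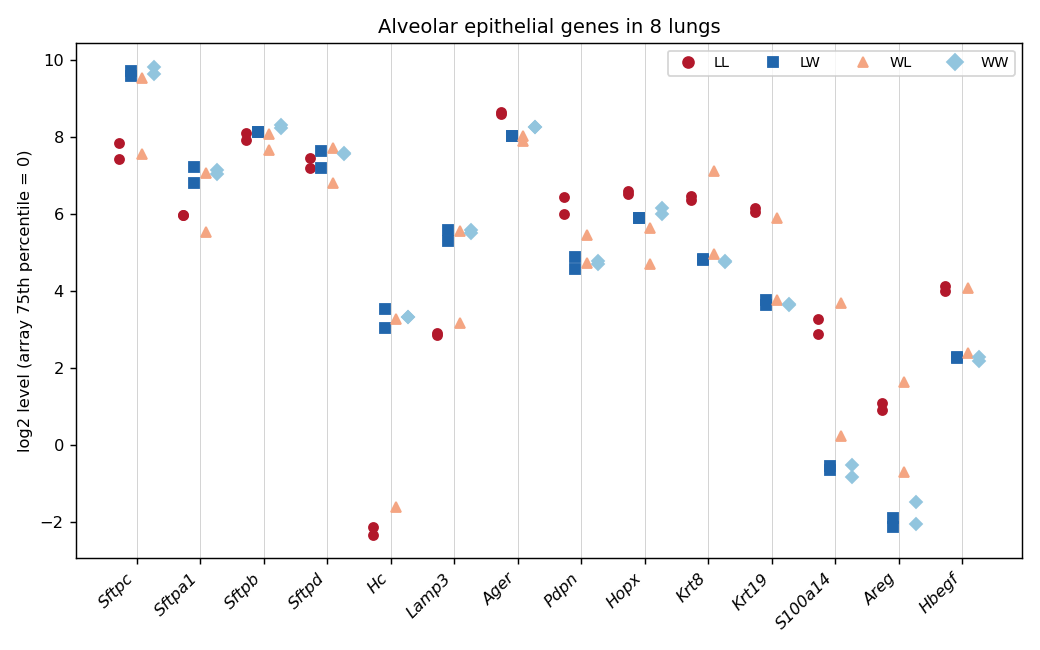
Levels of 14 epithelial and growth factor genes (y axis, log2, 0 at the array's 75th percentile) in each of the 8 lungs, coloured by group. LL mice lie under LW mice for Sftpc, Sftpa1, Hc and Lamp3 and above them for Ager, Pdpn, Hopx, Krt8, Krt19, S100a14, Areg and Hbegf, whereas Sftpb and Sftpd did not pass the test. WL mice differ from each other, with WL2 at 7.55 and WL1 at 9.51 for Sftpc.

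Among the airway epithelial lists, most motile cilia genes fell and club cell genes were mixed. Scgb1a1, the club cell secretoglobin, read 9.44 and 9.45 in LL and 9.50 and 9.50 in LW, a difference of -0.05 ± 0.09 (SE), adjusted p = 0.688 that did not pass. Of 18 club and secretory genes, 3 (3, 1, 0 and 0 without LL1, LL2, LW1 and LW2 in turn) rose and 7 (7, 5, 4 and 3) fell, with a median difference of -0.24 (-0.46 with quantile normalisation). Cyp2f2, the club cell cytochrome, read 6.31 and 6.6 in LL and 8.11 and 8.22 in LW (-1.71 ± 0.14 (SE), adjusted p = 0.00834), and Cyp2a5 read 2.23 and 2.47 in LL and 4.37 and 5.10 in LW (-2.38 ± 0.28 (SE), adjusted p = 0.012). Of 25 motile cilia genes, 2 (1, 1, 0 and 0) rose and 16 (11, 10, 3 and 5) fell, with a median difference of -0.64. The outer arm dynein genes Dnah5 and Dnah11 read -0.66 and -0.88 in LL and 0.99 and 0.62 in LW and -1.53 and -1.77 in LL and -0.33 and -0.30 in LW, with differences of -1.57 ± 0.18 (SE), adjusted p = 0.0111 and -1.33 ± 0.12 (SE), adjusted p = 0.00897. Foxj1, the factor that commits a cell to ciliation, read 1.81 and 1.96 in LL and 2.11 and 2.05 in LW and did not pass (-0.19 ± 0.11 (SE), adjusted p = 0.245). Ccno, needed to amplify centrioles before ciliation, differed by 2.28 and rose, against most of its list. Of the 25 lung transcription factors, 4 (4, 3, 1 and 1) rose and 6 (6, 7, 3 and 3) fell, with a median difference of -0.22. Nkx2-1, which specifies lung epithelium, and Cebpa, of mature type 2 cells, were among those that fell, Cebpa with -0.38 and -0.23 in LL and 1.35 and 1.22 in LW (-1.59 ± 0.12 (SE), adjusted p = 0.00743), and Klf5 rose (1.06 ± 0.10 (SE), adjusted p = 0.00907). Klf5 lost its call without LW2 (adjusted p = 0.0522). The probes of Klf5 disagreed, and another gave a difference of 0.07.

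Growth factors for epithelial repair are named in the study's title, and several ligands rose. Areg, the amphiregulin gene, read 1.11 and 0.91 in LL and -2.11 and -1.88 in LW, an 8.03-fold higher mean (3.0 ± 0.14 (SE), adjusted p = 0.00602). Ereg, the epiregulin gene, was at background in LW and at least 11.6-fold higher in LL. Nrg1, the neuregulin that binds ErbB receptors, read 2.44 and 2.34 in LL and -0.03 and 0.17 in LW (2.32 ± 0.12 (SE), adjusted p = 0.00602), though its 5 probes ranged from -0.03 to 2.83. Of 13 ligands and receptors of this family, 4 (3 to 5 with any 1 mouse left out) rose and 1 (0, 0, 1 and 0 without LL1, LL2, LW1 and LW2 in turn) fell, with a median difference of 0.00 (0.21 without LL1). The receptors Egfr, Erbb2 and Erbb3 differed by 0.64, -0.03 and -0.31, and none passed. Of 21 FGF genes and targets, 3 (3 to 4 with any 1 mouse left out) rose and 2 (3, 1, 1 and 1) fell, with a median difference of -0.05. Fgf2 read -1.34 and -1.28 in LL and -2.77 and -2.63 in LW (1.39 ± 0.10 (SE), adjusted p = 0.00785), and the FGF target Etv4 rose (1.55 ± 0.11 (SE), adjusted p = 0.0073) where Etv5 fell. Of 22 genes of the HGF and VEGF axes, 3 (2 to 3 with any 1 mouse left out) rose and 3 (3, 2, 0 and 1) fell, with a median difference of -0.10. Pgf, placental growth factor, read -1.51 and -1.30 in LL and -2.90 and -2.92 in LW (1.5 ± 0.12 (SE), adjusted p = 0.00807), while Hgf, the hepatocyte growth factor gene, differed by -0.29 and did not pass. The share called was 23.8% for the FGF list and 27.3% for the HGF and VEGF axes, no more than the 29.6% of all genes tested. Leaving out LW1 or LW2 ended the call of Ereg (adjusted p from 0.0544 to 0.0664). The probes of Fgf2 disagreed, and another gave a difference of 0.69.

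Ptn, the pleiotrophin gene, read 0.01 and -0.33 in LL and -1.42 and -1.78 in LW, a difference of 1.44 ± 0.20 (SE), adjusted p = 0.0151, with a second probe at 0.15. Its list with midkine and the PDGF genes held 20 tested genes, of which 5 (5, 2, 1 and 1 without LL1, LL2, LW1 and LW2 in turn) rose and 3 (4, 2, 1 and 1) fell, with a median difference of 0.19. Pdgfrb, the PDGF receptor of pericytes, read 1.68 and 1.89 in LL and 3.01 and 3.09 in LW (-1.27 ± 0.12 (SE), adjusted p = 0.00927), and Csf1, the macrophage growth factor, read 2.40 and 3.04 in LL and 1.42 and 1.24 in LW (1.39 ± 0.25 (SE), adjusted p = 0.0258). Of 27 genes of the TGF-beta and BMP family, 8 (8, 6, 4 and 4) rose and 3 (3, 4, 0 and 0) fell, with a median difference of 0.23. Gdf15, a stress-induced ligand, read 3.29 and 3.28 in LL and 1.64 and 1.36 in LW (1.79 ± 0.13 (SE), adjusted p = 0.00776). Inhba, the activin A chain, read -1.0 and -0.82 in LL and -2.33 and -2.19 in LW (1.35 ± 0.12 (SE), adjusted p = 0.00892), and its binding protein Fstl3 read 3.10 and 3.06 in LL and 1.22 and 0.99 in LW (1.97 ± 0.12 (SE), adjusted p = 0.00648). Of 25 Wnt ligands and response genes, 7 (4, 4, 2 and 1) rose and 4 (3, 2, 3 and 3) fell, with a median difference of -0.04. Wif1, a secreted Wnt inhibitor, read -2.44 and -2.43 in LL and -0.34 and -0.63 in LW (-1.95 ± 0.14 (SE), adjusted p = 0.00731), and Wnt7b, an epithelial ligand, read -0.32 and -0.32 in LL and -1.15 and -1.19 in LW (0.85 ± 0.09 (SE), adjusted p = 0.0109). Of 12 genes of the IGF axis, 3 (2, 4, 1 and 1) rose and 1 (0, 1, 0 and 0) fell, with a median difference of 0.30. Igfbp4, which binds and holds back IGF, read 1.96 and 1.87 in LL and 0.68 and 0.68 in LW (1.24 ± 0.10 (SE), adjusted p = 0.00807). Without LW2, Ptn no longer passed (adjusted p = 0.0591). Csf1 and Wnt7b lost their calls without LW1 or LW2 (adjusted p from 0.0613 to 0.101). The probes of Csf1 disagreed, and another gave a difference of 0.44.

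Cell division genes rose in LL. Of 44 mitosis and cytokinesis genes, 38 (31 to 36 with any 1 mouse left out) rose and 1 (0 with any 1 mouse left out) fell, with a median difference of 1.71 (1.59 with genes at background at their bound and 1.06 with normexp), against 17.0% of all genes rising. Cdk1, the kinase that drives entry into mitosis, read -1.26 and -1.39 in LL and -3.84 and -4.04 in LW, a 6.14-fold higher mean (2.62 ± 0.13 (SE), adjusted p = 0.00602). Ect2, the exchange factor of cytokinesis, read -0.01 and -0.04 in LL and -2.40 and -2.54 in LW (2.44 ± 0.11 (SE), adjusted p = 0.00602), and the kinetochore gene Spc24 read 1.26 and 1.22 in LL and -1.59 and -1.79 in LW (2.93 ± 0.12 (SE), adjusted p = 0.00602). Mki67, the Ki-67 proliferation marker, read 2.33 and 2.47 in LL and 1.34 and 0.95 in LW (1.26 ± 0.17 (SE), adjusted p = 0.0151). In each of these the LL mice lay above both LW mice. Of 39 DNA replication genes, 28 (20, 19, 9 and 7 without LL1, LL2, LW1 and LW2 in turn) rose and 0 fell, with a median difference of 0.70. Uhrf1, which carries DNA methylation through replication, read 1.34 and 1.17 in LL and -0.50 and -0.62 in LW (1.82 ± 0.12 (SE), adjusted p = 0.00664), and the helicase subunit gene Mcm5 read 1.19 and 1.01 in LL and -0.10 and -0.11 in LW (1.20 ± 0.11 (SE), adjusted p = 0.00897). The replication rises were smaller than the mitotic ones by their medians, 0.70 against 1.71. Which cells divided cannot be read from whole lung. Leaving out LL2 or LW2 ended the call of Mki67 (adjusted p from 0.0537 to 0.0597).

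Genes expressed in mitosis are known to share promoter elements, the CCAAT box bound by NF-Y and the cell cycle homology region. Promoters of the called mitosis genes were therefore read from RefSeq (GRCm38.p6), as the 150 bases before the start site, and 31 of the 38 had an entry. CCAAT, searched on both strands, was present in 22 of 31 (71.0%) and in 25.3% of the 27025 genes with a promoter in the table. The letters TTTGAA or TTCGAA, on either strand, were present in 9 of 31 (29.0%) against 9.9% of all genes. Both occurred together in 7 of 31 (22.6%) against 2.5%. A match is a description of letters and not a bound site. The called genes were 38 of the 44 tested on this list, so the shares describe the list and not the difference between LL and LW. The shares over all genes cover every gene in the promoter table, tested here or not. The 7 promoters that hold both are shown as the members that carry both, with the motifs in capitals on whichever strand they lie, written 5′ to 3′ in the direction of transcription. They are Ect2 at chr3:27153879-27154028 (- strand), Cdk1 at chr10:69352913-69353062 (- strand), Ube2c at chr2:164769779-164769928 (+ strand), Cdc20 at chr4:118437344-118437493 (- strand), Cdkn3 at chr14:46760391-46760540 (+ strand), Top2a at chr11:99024190-99024339 (- strand) and Mki67 at chr7:135716380-135716529 (- strand).
Ect2: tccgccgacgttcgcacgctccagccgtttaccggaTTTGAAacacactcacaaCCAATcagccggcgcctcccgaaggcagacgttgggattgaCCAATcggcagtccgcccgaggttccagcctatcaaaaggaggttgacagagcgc
Cdk1: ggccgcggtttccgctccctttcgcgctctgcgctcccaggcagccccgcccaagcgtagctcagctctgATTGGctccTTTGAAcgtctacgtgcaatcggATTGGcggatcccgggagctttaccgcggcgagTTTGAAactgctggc
Ube2c: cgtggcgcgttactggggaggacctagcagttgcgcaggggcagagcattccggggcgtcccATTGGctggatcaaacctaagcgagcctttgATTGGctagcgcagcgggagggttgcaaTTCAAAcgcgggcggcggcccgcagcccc
Cdc20: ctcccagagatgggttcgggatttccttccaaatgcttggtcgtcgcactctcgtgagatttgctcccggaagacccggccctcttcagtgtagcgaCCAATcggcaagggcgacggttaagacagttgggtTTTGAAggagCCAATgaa
Cdkn3: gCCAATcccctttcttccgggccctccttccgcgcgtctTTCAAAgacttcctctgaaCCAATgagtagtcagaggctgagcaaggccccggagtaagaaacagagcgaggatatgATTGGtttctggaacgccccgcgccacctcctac
Top2a: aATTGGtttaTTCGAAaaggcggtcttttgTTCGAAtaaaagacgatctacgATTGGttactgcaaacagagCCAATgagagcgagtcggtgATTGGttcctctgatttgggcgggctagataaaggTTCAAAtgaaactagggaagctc
Mki67: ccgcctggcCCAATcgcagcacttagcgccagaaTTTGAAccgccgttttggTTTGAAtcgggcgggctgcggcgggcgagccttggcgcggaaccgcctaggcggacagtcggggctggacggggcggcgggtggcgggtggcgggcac

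Inflammatory mediators rose in the same lungs. Of 28 acute phase genes, 11 (15, 7, 6 and 8 without LL1, LL2, LW1 and LW2 in turn) rose and 1 (1, 2, 1 and 1) fell, with a median difference of 1.49 (0.89 with normexp). Saa3, the serum amyloid gene expressed outside the liver, read 6.20 and 8.21 in LL and 3.05 and 2.78 in LW, a 19.6-fold higher mean (4.29 ± 0.71 (SE), adjusted p = 0.022), with LL mice that differed by 2 log2 units. Saa1 and Saa2, near-identical paralogues, differed by 4.09 and 4.74. Serpina3n, a protease inhibitor, read 3.76 and 4.39 in LL and 0.56 and 0.55 in LW (3.52 ± 0.24 (SE), adjusted p = 0.007). Lcn2, an iron-binding protein of epithelium and neutrophils, read 5.74 and 7.68 in LL and 4.79 and 3.49 in LW, a difference of 2.57 ± 0.82 (SE), adjusted p = 0.0845 that did not pass. Of 14 CXC chemokines, 6 (5 to 7 with any 1 mouse left out) rose and 1 (0, 1, 0 and 0) fell, with a median difference of 1.53 (1.15 with genes at background at their bound, 0.93 with normexp and 0.93 over genes above background on every array). The neutrophil attractant Cxcl1 read 3.53 and 3.91 in LL and -0.92 and -2.33 in LW, the largest rise among genes above background on all 4 arrays (5.35 ± 0.52 (SE), adjusted p = 0.00928). Cxcl2, a second neutrophil attractant, was at background in LW and at least 19.4-fold higher in LL. Cxcl10, which attracts T cells, read 3.07 and 3.17 in LL and 0.12 and 0.82 in LW (2.65 ± 0.27 (SE), adjusted p = 0.00976). Cxcl15, the lung chemokine of epithelium, differed by -1.08 and fell. Without LW1 or LW2, Saa3 and Saa1 no longer passed (adjusted p from 0.0705 to 0.0986).

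CC chemokines were mixed: of 18, 2 (5, 1, 1 and 1 without LL1, LL2, LW1 and LW2 in turn) rose and 5 (4, 3, 3 and 2) fell, with a median difference of 0.22 (-0.52 without LL2 and -0.07 without LW2). Ccl20, which epithelium releases to attract dendritic cells, read 1.86 and 1.65 in LL and -0.74 and -2.01 in LW (3.13 ± 0.46 (SE), adjusted p = 0.0173), whereas Ccl8 and Ccl12, products of macrophages, read -2.91 and -1.58 in LL and 1.40 and 0.97 in LW and -3.38 and -3.54 in LL and -1.08 and -1.23 in LW (-3.43 ± 0.50 (SE), adjusted p = 0.0169 and -2.31 ± 0.12 (SE), adjusted p = 0.00602). In the interleukin 1 and 6 families, 25 genes were tested and 9 (9, 6, 3 and 3) rose and 2 (2, 4, 0 and 0) fell, with a median difference of 0.15 (0.57 without LL1). Il6 read -0.30 and 1.40 in LL and -3.42 and -3.74 in LW, a 17.5-fold higher mean (4.13 ± 0.61 (SE), adjusted p = 0.0177). Il11 and Lif, relatives that signal through the same gp130 chain, read -1.0 and -0.48 in LL and -2.60 and -2.73 in LW and 0.27 and 0.09 in LL and -1.65 and -1.72 in LW (1.92 ± 0.20 (SE), adjusted p = 0.0105 and 1.86 ± 0.12 (SE), adjusted p = 0.00648). Of 24 interferon response genes, 6 (4, 1, 1 and 4) rose and 0 fell, with a median difference of 0.66. Isg15, a ubiquitin-like protein, read 4.48 and 4.96 in LL and 2.78 and 3.53 in LW (1.57 ± 0.33 (SE), adjusted p = 0.0342). Of 22 complement genes, 2 (2, 0, 0 and 0) rose and 8 (7, 9, 6 and 5) fell, with a median difference of -0.42 (-0.22 with normexp, 0.03 over genes above background on every array, -0.20 without LL1 and -0.81 without LW1), the falls including the C1q chains and Hc described above. Ccl20 lost its call without LL1 or LL2 (adjusted p from 0.0625 to 0.0654). Leaving out LW1 or LW2 ended the calls of Ccl8 and Il6 (adjusted p from 0.0558 to 0.068). Without LL1, LL2 or LW1, Isg15 no longer passed (adjusted p from 0.0636 to 0.114).

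Of 16 glucocorticoid response and metallothionein genes, 10 (8, 8, 6 and 6 without LL1, LL2, LW1 and LW2 in turn) rose and 0 fell, with a median difference of 1.22. The metal-binding protein gene Mt2 read 7.67 and 8.57 in LL and 4.41 and 4.71 in LW, an 11.8-fold higher mean (3.56 ± 0.34 (SE), adjusted p = 0.00928). Fkbp5, the immunophilin that holds the glucocorticoid receptor in check, read 3.63 and 4.37 in LL and 1.41 and 1.09 in LW (2.75 ± 0.29 (SE), adjusted p = 0.0105), and Angptl4, an inhibitor of lipoprotein lipase, read 5.62 and 6.0 in LL and 4.07 and 3.72 in LW (1.92 ± 0.20 (SE), adjusted p = 0.0103). Tsc22d3, which encodes the glucocorticoid-induced leucine zipper, differed by 0.15 and did not pass. Of 22 early response transcription factors, 15 (13, 10, 8 and 8) rose and 1 (1, 0, 0 and 0) fell, with a median difference of 0.86. Fosl1, an AP-1 subunit, was at background in LW and at least 13-fold higher in LL. Atf3 read 1.65 and 1.58 in LL and -0.15 and -0.34 in LW (1.86 ± 0.12 (SE), adjusted p = 0.00648), and Maff read 3.54 and 3.28 in LL and 0.70 and 0.96 in LW (2.58 ± 0.16 (SE), adjusted p = 0.00648). Nr4a1, which non-classical monocytes need, was the member that fell. Of 17 clock genes, 7 (5, 5, 2 and 2) rose and 0 (up to 1 with 1 mouse left out) fell, with a median difference of 0.27 (0.01 without LL1 and 0.54 without LL2). Per1, which glucocorticoids also induce, is shared with the list above, and Nr1d1 read 2.81 and 2.24 in LL and 0.87 and 0.86 in LW (1.66 ± 0.22 (SE), adjusted p = 0.0143). The hour at which lungs were taken is not given in the sources used here. Nr1d1 lost its call without LW1 or LW2 (adjusted p from 0.0584 to 0.0619).

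Matrix and pleural genes rose. Of 31 collagen and matrix genes, 20 (17, 13, 7 and 6 without LL1, LL2, LW1 and LW2 in turn) rose and 2 (3, 1, 0 and 0) fell, with a median difference of 0.76 (0.61 with genes at background at their bound). The basement membrane chain genes Col4a1 and Col4a2 read 5.01 and 5.43 in LL and 3.40 and 3.38 in LW and 4.88 and 5.21 in LL and 3.43 and 3.33 in LW (1.84 ± 0.17 (SE), adjusted p = 0.00908 and 1.66 ± 0.15 (SE), adjusted p = 0.00892). Col1a1, the main fibrillar collagen, read 4.42 and 4.61 in LL and 3.45 and 3.31 in LW (1.13 ± 0.12 (SE), adjusted p = 0.0109), and Acta2, of smooth muscle and myofibroblasts, differed by -0.06 and did not pass. Of 22 metalloproteinases and inhibitors, 10 (8, 7, 5 and 7) rose and 2 (1, 4, 1 and 1) fell, with a median difference of 0.62 (0.52 with genes at background at their bound and 0.40 with normexp). Timp1, the inducible inhibitor, read 4.72 and 5.90 in LL and 1.68 and 1.32 in LW, a 14-fold higher mean (3.81 ± 0.44 (SE), adjusted p = 0.0115). Adamts4, an aggrecanase, read 1.84 and 3.85 in LL and -1.60 and -1.96 in LW (4.63 ± 0.71 (SE), adjusted p = 0.0192). Mmp12, the macrophage elastase, fell. Of 10 mesothelial genes, 6 (5 to 6 with any 1 mouse left out) rose and 0 fell, with a median difference of 1.18 (0.74 with normexp). Msln, the mesothelin gene, read 6.10 and 6.11 in LL and 4.52 and 4.25 in LW (1.72 ± 0.13 (SE), adjusted p = 0.00796), Wt1 read 1.34 and 1.06 in LL and -0.37 and -0.65 in LW (1.71 ± 0.17 (SE), adjusted p = 0.00944), and Prg4, a lubricin of the pleural surface, read 0.95 and 1.80 in LL and -2.38 and -2.71 in LW (3.92 ± 0.33 (SE), adjusted p = 0.00837). The share of pleura in each sample of whole lung was not measured. Cardiac muscle genes, which whole lung takes from the pulmonary veins, differed in 1 of 15, Tnnt2 (0.91 ± 0.16 (SE), adjusted p = 0.0236). Leaving out LW2 ended the call of Col1a1 (adjusted p = 0.0575). Without LW1 or LW2, Adamts4 no longer passed (adjusted p from 0.0621 to 0.0717). Tnnt2 lost its call without LL1, LL2, LW1 or LW2 (adjusted p from 0.0543 to 0.0882). The probes of Wt1 and Tnnt2 disagreed, and another probe of each gave differences of 0.62 and 0.14, in that order.

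Endothelial genes moved both ways: of 31, 8 (9, 8, 1 and 0 without LL1, LL2, LW1 and LW2 in turn) rose and 6 (6, 4, 0 and 0) fell, with a median difference of 0.25. Pecam1 and Cdh5, which all endothelium expresses, did not pass (0.33 ± 0.11 (SE), adjusted p = 0.0865 and -0.16 ± 0.12 (SE), adjusted p = 0.344). Icam1, an inducible adhesion molecule, read 6.21 and 6.62 in LL and 5.07 and 4.89 in LW (1.44 ± 0.18 (SE), adjusted p = 0.0132), Lyve1, of lymphatic vessels and some macrophages, read 4.53 and 5.04 in LL and 3.03 and 3.11 in LW (1.72 ± 0.20 (SE), adjusted p = 0.0118), and Ednrb, the endothelin receptor of aerocyte capillaries, read -0.69 and -0.81 in LL and 0.28 and 0.30 in LW (-1.04 ± 0.10 (SE), adjusted p = 0.00949). Of 23 coagulation and fibrinolysis genes, 9 (9, 8, 4 and 3) rose and 4 (3, 4, 3 and 2) fell, with a median difference of 0.24 (0.03 without LW2). F3, tissue factor, read 5.19 and 4.83 in LL and 2.64 and 2.54 in LW (2.43 ± 0.16 (SE), adjusted p = 0.00666), and Plat, the tissue plasminogen activator, read 1.70 and 2.35 in LL and -0.66 and -0.37 in LW (2.54 ± 0.27 (SE), adjusted p = 0.0103). F13a1, a transglutaminase of macrophages and platelets, and F7, a liver-type clotting factor also made by macrophages, differed by -3.21 and -3.06. Of 21 YAP and TAZ targets, 7 (5, 4, 1 and 1) rose and 1 (1, 1, 0 and 0) fell, with a median difference of 0.26. Ankrd1 read 3.44 and 3.18 in LL and 1.32 and 1.56 in LW (1.86 ± 0.15 (SE), adjusted p = 0.00828), while Cyr61, another usual target, differed by 0.26 and did not pass. Leaving out LW2 ended the call of Icam1 (adjusted p = 0.0619). Without LW1 or LW2, Lyve1 and Ednrb no longer passed (adjusted p from 0.0512 to 0.0544).

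Stress lists differed in the share of members called, which was 29.6% over all genes tested. It was 28% for the integrated and endoplasmic reticulum stress responses and 37.5% for p53 targets. For NRF2 and glutathione defence it was 48%, and for cell death genes 48.1%. Of 12 genes of the toxin target and of diphthamide synthesis, 7 (4, 3, 1 and 1 without LL1, LL2, LW1 and LW2 in turn) rose and 0 fell, with a median difference of 0.44. Dph3 read 3.16 and 3.30 in LL and 2.41 and 2.41 in LW (0.82 ± 0.10 (SE), adjusted p = 0.0135), and its 3 probes ran from -1.02 to 0.82. Of 25 genes of the integrated and endoplasmic reticulum stress responses, 6 (6, 7, 3 and 3) rose and 1 (0 with any 1 mouse left out) fell, with a median difference of 0.22. Psat1, of serine synthesis, read 2.67 and 2.56 in LL and 0.28 and 0.31 in LW (2.32 ± 0.10 (SE), adjusted p = 0.00602), whereas Hspa5 and Ddit3, the usual endoplasmic reticulum readouts, differed by 0.12 and 0.51 and did not pass. Of 25 genes of NRF2 and glutathione defence, 12 (14, 6, 2 and 1) rose and 0 (up to 1 with 1 mouse left out) fell, with a median difference of 0.71. Gpx3, a secreted glutathione peroxidase, read 6.27 and 6.42 in LL and 5.11 and 5.17 in LW (1.21 ± 0.11 (SE), adjusted p = 0.00892). Of 24 p53 targets, 8 (6, 5, 2 and 2) rose and 1 (0 with any 1 mouse left out) fell, with a median difference of 0.33. Of 27 cell death genes, 8 (9, 5, 3 and 3) rose and 5 (4, 2, 1 and 1) fell, with a median difference of 0.12. Ripk3 and Mlkl, the necroptosis kinase and its effector, read 1.35 and 1.41 in LL and 0.09 and 0.26 in LW and 0.49 and 0.75 in LL and -0.81 and -0.77 in LW (1.20 ± 0.11 (SE), adjusted p = 0.00908 and 1.41 ± 0.13 (SE), adjusted p = 0.00892), while Casp8, an initiator caspase, differed by 0.05 and did not pass. Of 27 genes of sterol and fatty acid synthesis, 5 (3, 3, 1 and 1) rose and 7 (5, 2, 2 and 1) fell, with a median difference of -0.15. Fasn and Scd1, of fatty acid synthesis and shared with the type 2 cell list, read 4.46 and 4.59 in LL and 5.76 and 5.85 in LW and 0.86 and 1.60 in LL and 3.40 and 3.68 in LW (-1.28 ± 0.11 (SE), adjusted p = 0.00843 and -2.30 ± 0.29 (SE), adjusted p = 0.0133). Dph3 lost its call without LW1 or LW2 (adjusted p from 0.0734 to 0.0766). Leaving out LW2 ended the call of Scd1 (adjusted p = 0.0563). The probes of Scd1 disagreed, and another gave a difference of -1.11.

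Several of the largest changes lay outside these lists. Phgr1, a small proline-, histidine- and glycine-rich protein, read 1.34 and 2.29 in LL and -3.02 and -3.40 in LW, a 32.6-fold higher mean (5.03 ± 0.37 (SE), adjusted p = 0.00764). Pla1a, a phosphatidylserine phospholipase, read 2.93 and 3.48 in LL and -0.86 and -1.34 in LW (4.30 ± 0.27 (SE), adjusted p = 0.00649). Epha8, an ephrin receptor, Krtap11-1, a hair keratin associated protein, and the adhesion molecule Chl1 differed by 4.14, 3.58 and 3.69 and rose. For Col22a1, also among the 15 largest rises, the probes gave 0.57 and 3.59. At background in LW and with the largest bounds were Efcab3 (at least 58.1-fold higher), Pbp2 (17.8-fold) and Akap4 (15.2-fold). Among the declines, Nrn1 read -4.19 and -4.42 in LL and -0.16 and -0.30 in LW (-4.08 ± 0.13 (SE), adjusted p = 0.00602) and Bex2 read -1.47 and -1.67 in LL and 2.23 and 2.53 in LW (-3.96 ± 0.16 (SE), adjusted p = 0.00602). Atf7 was measured by 5 probes, from -4.25 to 0.09, so its call rests on the brightest. Tinag, the tubulointerstitial nephritis antigen, was at background in LL and at least 35.6-fold lower, and the lectin gene Cd209f at least 15.8-fold lower. Without LW1 or LW2, Chl1 no longer passed (adjusted p from 0.0732 to 0.099). The probes of Efcab3, Pbp2 and Akap4 disagreed, and another probe of each gave differences of 2.86, 2.63 and 3.26, in that order.

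The same recipient difference was measured under wild-type marrow, between WL and WW, in a comparison that shares no array with the first. WL arrays lay on the side of the slide that held LL, and WW arrays on the side that held LW. Recipient genotype and side of the slide therefore cannot be told apart here either. WL mice differed from each other by over 1 in 4411 genes, against 775 in LL and 565 in WW, so their mean stands for neither. Relative to the WW mean, type 2 cell genes had an average of -0.01 in WL1 and -1.64 in WL2, transitional state genes 0.12 in WL1 and 2.06 in WL2, acute phase genes 0.27 in WL1 and 1.83 in WL2 and T cell genes 0.01 in WL1 and -1.33 in WL2. In each of these lists WL2 lay on the side of LL and WL1 near WW. Mitosis genes were above WW in both, at 1.06 in WL1 and 1.47 in WL2. Alveolar macrophage genes averaged 0.45 in WL1 and -0.28 in WL2 and monocyte and recruited macrophage genes 0.21 in WL1 and 0.65 in WL2, with neither WL mouse near the levels of LL. Platelet genes averaged -0.47 in WL1 and 0.07 in WL2. These averages are descriptions with no test.

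**Figure D5:**
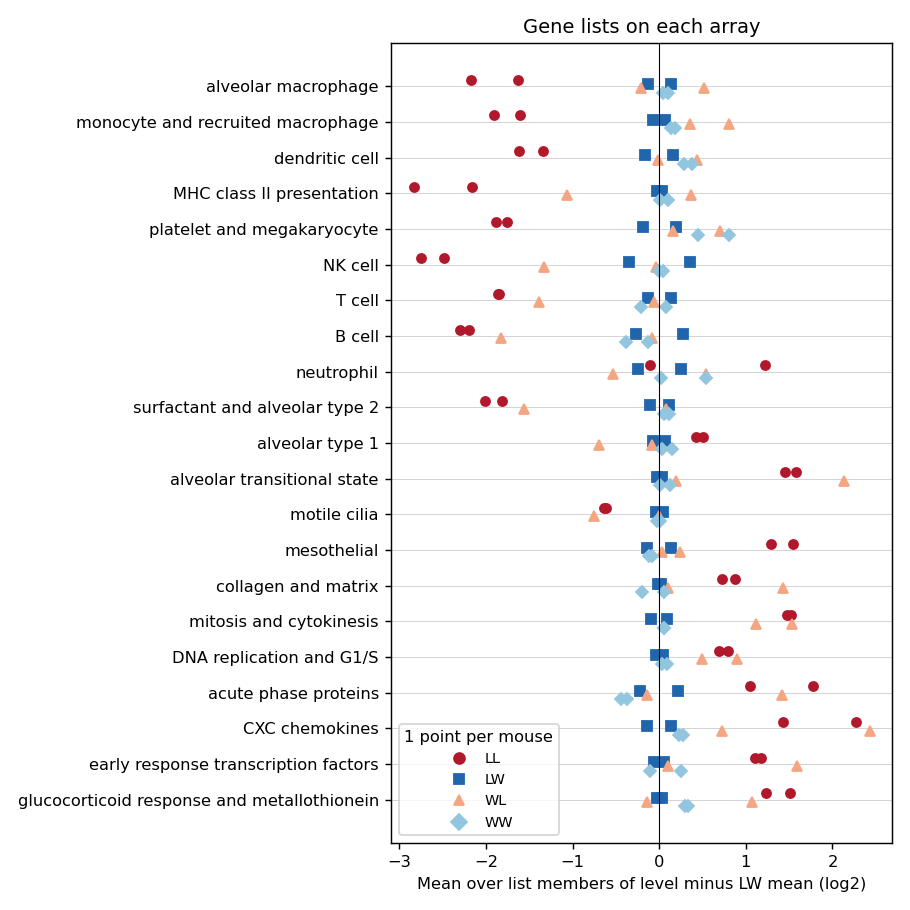
Mean over the tested members of 21 gene lists of each mouse's level minus the LW mean (x axis, log2), 1 point per mouse, coloured by group. LL mice lie to the left for macrophage, platelet, lymphocyte and type 2 cell lists and to the right for transitional, mitosis, acute phase and mesothelial lists. WL2 joins them for type 2, lymphocyte and transitional genes but not for macrophage or platelet genes.

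The difference of the differences, (LL - LW) - (WL - WW), was tested gene by gene on all 8 arrays. Of 25830 genes, 16 were called (0.0619%), 15 of them more negative with LysM-DTR marrow, and 2360 had an unadjusted p under 0.05. Named genes among the 15 were macrophage genes. Ms4a7 differed by -5.90 between recipients under LysM-DTR marrow and by 0.90 under wild-type marrow, a difference of -6.80 ± 0.30 (SE), adjusted p = 0.00892. C1qa gave -4.72 and 1.1 (-5.83 ± 0.33 (SE), adjusted p = 0.0216). Clec7a gave -5.74 and 0.23 (-5.98 ± 0.51 (SE), adjusted p = 0.0433), and Cx3cr1 gave -6.0 and 0.01 (-6.01 ± 0.49 (SE), adjusted p = 0.0411). C1qc read 3.14 and 3.54 in WL and 2.41 and 2.35 in WW, so both WL mice lay above both WW mice. Aif1, Scimp, Slamf9, Pld4, Cd200r1 and Serpinb10, chosen for mention after their values were seen, were called in the same direction. For Cd200r1 and Serpinb10 neither LL array was well above background, so their values depend on levels that were not measured. For Cyp2c50 and Olfr707, also named after their values were seen, LW was the highest of the 4 groups and the only one with an array well above background. The calls were few and unstable: 0 genes were called without LL1, without WW1 or without WW2, 1 without LW1 or LW2, 10 without LL2, 223 without WL1 and 2209 without WL2. Without WL2 the group holds 1 mouse, which is then assumed to vary like the others.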

How the data were processed

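Total RNA of whole lungs was labelled with Cy3 and hybridised to Agilent arrays, 1 array per mouse. The deposited array files hold intensity values from Agilent Feature Extraction 11.5.1.1 (per the submitters' processing notes), which per the file headers are background-subtracted within the array, with detection and outlier marks. The deposited series table holds log2 values. Over 99.78 to 99.86% of probes it matched the log2 processed intensity minus a constant per array within 0.001, with column medians from -2.94 to -2.70, so its scale and direction are known and genes were not centred. Gene names are those of the array design; 18264 of the tested genes matched RefSeq and 896 carry another symbol there.

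Non-uniform spots were left out, spots of a probe averaged, and log2 intensities set against each array's 75th percentile. Probes well above background on both arrays of LL or of LW were kept (38512), and a gene was its probe with the highest mean. LL and LW were compared with limma 3.58.1 (R 4.3.3), with Benjamini-Hochberg adjustment over all genes. The recipient difference under either marrow was tested on all 8 arrays. A gene at background in a group has a lower bound of its fold: the mean of the brighter group against the lowest signal well above background on each dim array, or the gene's own signal where higher. The test code was run on simulated independent normal values in which few genes changed. That setting lacks the side of the slide and the many calls of these data, so it does not check the calls made here. The arrays' number limits the precision. The replicate number follows the order of a group's arrays along its side of the slide and names no shared animal. Replicates are separate mice by the study's design text.

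The comparison, the 52 gene lists (1155 entries) and the naming rule were chosen with earlier results of these data known. The rule names the 15 largest called differences each way among genes above background on all 4 arrays whose groups did not overlap, the 5 largest bounds each way, up to 4 called members of a list by smallest p, or 2 members where a list has no call, up to 5 each way of the difference between marrows, and a fixed set of markers. Predicted genes are counted but not named, and a few other genes are not reported here. Ncr1, of the fixed set, did not pass the detection filter. Alternatives tried were normexp background correction (offset 50), quantile normalisation, another percentile, other detection filters, other handling of probes and outlier spots, the series table, other variance models and arrays in the fit, a fold threshold, the replicate block and leaving out each mouse. Promoters came from RefSeq (GRCm38.p6), and figures were drawn with matplotlib 3.10.9.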

Additional observations from a re-analysis of the deposited data

Results flagged for a closer look

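For 7 macrophage genes the difference between LysM-DTR and wild-type recipients was itself different under LysM-DTR marrow and under wild-type marrow, by the test of that difference in limma on all 8 arrays. Ms4a7 gave the largest value, -6.80 (SE 0.30, adjusted p = 0.00892). Cx3cr1, the fractalkine receptor, gave -6.01 (SE 0.49, adjusted p = 0.0411), and its levels were -4.35 and -4.82 in LL, 1.55 and 1.28 in LW, 2.30 and 1.36 in WL and 1.64 and 2.01 in WW. Clec7a gave -5.98 (SE 0.51, adjusted p = 0.0433).

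The 3 chains of complement C1q were among them. C1qa gave -5.83 (SE 0.33, adjusted p = 0.0216), C1qc -5.71 (SE 0.39, adjusted p = 0.0314) and C1qb -4.44 (SE 0.34, adjusted p = 0.0348). C1qb read -2.77 and -2.98 in LL, 0.51 and 0.20 in LW, 1.41 and 1.97 in WL and 0.60 and 0.35 in WW. In each chain both LL mice were the lowest of the 8 and both WL mice the highest. Cd163 gave -5.24 (SE 0.47, adjusted p = 0.0433), but neither LL array was above background for it, so its value depends on levels that were not measured. All 7 lost their calls without LL1, without WW1 and without WW2, and all 7 kept them without WL1 and without WL2. Without LW1 or LW2, 6 lost theirs and Ms4a7 kept its call, and without LL2, 4 lost theirs. With the replicate block 5 were lost, with no detection filter 6, with normexp 2 (Cd163 and Cx3cr1) and with the mean of probes 1 (Clec7a). These genes were chosen by the same arrays that tested them.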

How the results depend on the processing

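Of 7456 genes called between LL and LW, normexp background correction, quantile normalisation, another percentile, either other detection filter, other handling of probes or outlier spots, the series table, a trended variance and the fit with WW added gave counts within 1.5 times (7192 to 11055), and no named gene with a call changed direction under any setting run. The 11055 were probes, out of 38512, with each probe taken on its own. With no detection filter 10938 of 37073 genes were called, against 7456 of 25208 in the main fit. The percentage of calls that were higher in LL moved from 57.5 to 50.4 with the percentile over probes detected on all arrays and to 35.9 with no detection filter. The replicate block gave 4801 calls, and crossed numbers, chosen after seeing the data, gave 5051. Over all genes, same-numbered LL and LW mice did not deviate together (correlation -0.112), but neutrophil genes averaged higher in replicate 2 of all 4 groups. Same-numbered LL and LW arrays lay at the same position along opposite sides of the slide, and same-numbered WL and WW arrays at other positions. A number is thus not a single place across the 4 groups. What else the numbers share was not tested. Leaving out 1 mouse gave 1931 to 5773 calls, the lowest without LW2. A log2 change of at least 1 left 3010 calls, all 8 arrays in the fit 751 and no variance moderation 0.

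The difference between marrows (16 calls) gave 10 with normexp, 53 with quantile normalisation, 1 with no detection filter, 8 with genes above background on every array and 2 with the replicate block. With 1 mouse left out it gave 0 to 2209, the highest without WL2. Genes at background in a group have only a bound, and genes dim in both groups were not tested. The cause of these shifts was not tested.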
